A study of Mus musculus with 11 samples.

Results

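The miR-379-410 cluster is the distal and larger of the miRNA clusters in the imprinted Dlk1-Dio3 domain of mouse chromosome 12. Its members were taken by name from the table of mature miRNAs, as both arms of 37 hairpins from Mir379 to Mir410, which gave 74 of the 1966 miRNAs listed. Of these 74 members, 72 had a count in at least 1 library and 55 passed the filter on low counts and were tested, while 19 did not pass it. The small RNA libraries came from mouse embryonic stem cells, grown without feeder cells in medium with leukemia inhibitory factor and the 2i inhibitors. Every library had the same strain label, a Novus Biochemicals product, and the groups differed in DGCR8. The KO cells (DGCR8 -/-, non-transfected) were treated with doxycycline, and all 3 KO libraries carried clone number 261. The wild-type cells (DGCR8 wt/wt in the labels) carried the vector pSB ET iE-FlagDGCR8-wt and the E518K cells (DGCR8 E518K/E518K) the vector pSB ET iE-FlagDGCR8-E518K. Both had received it by transfection along with pCMV(CAT)-SB100X. Induced libraries came from cells given doxycycline at 300 ng/mL for 48 h. There were 3 from wild-type lines numbered 10, 12 and 16 and 3 from E518K lines numbered 8, 13 and 15, called clones here. In addition, wild-type clone 10 and E518K clone 8 each gave 1 library without doxycycline. No label says that the 3 KO libraries were separate cultures. P-values therefore measure the spread between these samples, which may be technical in the KO.

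As background, the genes of this cluster are expressed from the maternal chromosome only, within a long noncoding transcription unit that runs from Meg3 through Rian to Mirg. The nascent RNA holds many hairpins one after the other, and each is cut out by the microprocessor, in which DGCR8 binds the hairpin and the nuclease Drosha cleaves its base. Dicer then removes the loop, and the 5p or the 3p strand is loaded into an Argonaute protein, where bases 2 to 8, the seed, select the targets. E518K changes a single residue in a double-stranded RNA-binding domain of DGCR8 and recurs in Wilms tumours, a kidney cancer of childhood. In the mouse the cluster is best known from brain and placenta, and an active maternal Dlk1-Dio3 domain is a mark of stem cells with full developmental potential.

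Because the members come from neighbouring hairpins, nearly all on the same strand, the sequences that tell them apart are shown first. Mature sequences were matched for 70 of 74 members in RefSeq records of GRCm38.p6. miR-376c-3p, miR-487b-3p, miR-539-3p and miR-485-5p are named only. The seed is in capitals, and the set holds abundant or strongly changed members together with some pairs of similar sequence, not ranked by resemblance:
miR-379-5p: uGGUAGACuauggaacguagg
miR-1193-5p: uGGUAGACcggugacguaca
miR-411-5p: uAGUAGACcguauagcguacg
miR-379-3p: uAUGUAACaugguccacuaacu
miR-411-3p: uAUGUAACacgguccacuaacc
miR-134-5p: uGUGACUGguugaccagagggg
miR-300-3p: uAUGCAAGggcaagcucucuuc
miR-381-3p: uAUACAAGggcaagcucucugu
miR-495-3p: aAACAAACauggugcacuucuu
miR-541-5p: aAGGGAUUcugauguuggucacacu
miR-409-3p: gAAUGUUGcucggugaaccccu
miR-412-5p: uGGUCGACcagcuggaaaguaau
miR-410-3p: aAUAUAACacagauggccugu
miR-668-3p: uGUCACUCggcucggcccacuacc
Seeds were rarely shared: the 68 members with a sequence, counted without the Mir299b arms, held 63 different seeds. Only 5 seeds occurred in a pair of members. These were AUGUAAC in miR-379-3p and miR-411-3p, GGUAGAC in miR-379-5p and miR-1193-5p, GGUUGAC in miR-1197-5p and miR-758-5p, GGUUGUC in miR-410-5p and miR-494-5p, and UGGAUAU in miR-376b-5p and miR-376c-5p. Compared without gaps, miR-379-3p and miR-411-3p had the same base at 20 of 22 positions. miR-300-3p and miR-381-3p had the same base at 19 of 22 positions but different seeds. Only chosen pairs were compared, and others not printed, such as miR-376b-5p and miR-376c-5p, are also nearly identical. The sources used here do not say how reads matching more than 1 member were counted.

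The hairpins lay on the plus strand of chromosome 12 of GRCm38.p6 between 109709060 and 109743795, a span of 34.736 kb. In genomic order they were Mir379, Mir411, Mir299a, Mir380, Mir1197, Mir323, Mir758, Mir329, Mir494, Mir679, Mir1193, Mir666, Mir543, Mir495, Mir667, Mir376c, Mir654, Mir376b, Mir376a, Mir300, Mir381, Mir487b, Mir539, Mir544, Mir382, Mir134, Mir668, Mir485, Mir154, Mir496a, Mir377, Mir541, Mir409, Mir412, Mir369 and Mir410. The remaining one, Mir299b, is annotated on the minus strand opposite Mir299a. Its counts equalled those of Mir299a in every library, miR-299b-5p those of miR-299a-3p and miR-299b-3p those of miR-299a-5p, so these 4 members hold the information of 1 hairpin. GENCODE places 12 of the hairpins within the noncoding gene Mirg (109729764 to 109749460), 8 overlapping an exon and 4 within introns. It also lists miRNA models on the opposite strand at Mir380, Mir376a, Mir539 and Mir409. The sources used here do not say whether counting kept the strand. At Mir299a and Mir299b it did not: miR-299b-5p has the sequence of miR-299a-5p, but the counts of miR-299a-3p, which it overlaps on the opposite strand. Reads from such pairs cannot be told apart.

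4 hairpins show the precursor form. Both mature arms are in capitals, Mir379 and Mir134 belong to the largest falls described below, and Mir409 and Mir412 to the members that were higher in E518K:
Mir379: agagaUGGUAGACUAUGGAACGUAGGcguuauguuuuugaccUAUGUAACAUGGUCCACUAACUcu
Mir134: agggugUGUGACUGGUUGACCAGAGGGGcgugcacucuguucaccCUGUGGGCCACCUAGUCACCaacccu
Mir409: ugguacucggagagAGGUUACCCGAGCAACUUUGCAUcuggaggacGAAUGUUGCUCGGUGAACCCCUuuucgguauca
Mir412: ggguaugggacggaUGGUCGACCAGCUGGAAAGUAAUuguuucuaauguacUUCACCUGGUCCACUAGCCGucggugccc

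The libraries differed widely in depth, with 166676 to 208846 miRNA counts per KO library, 3394216 to 6128734 per induced wild-type library and 1050564 to 1797240 per induced E518K library. The untreated libraries had 1421247 (wild type) and 264507 (E518K). Levels are given in CPM after TMM scaling, which aligns the bulk of miRNAs between libraries and had factors from 1.94 to 2.25 in the KO. Wild-type clone 16 stood apart from its group, with a factor of 0.909 against 0.601 and 0.538 in clones 10 and 12, and results that rest on it are given without it. Most counts were even numbers, 86.5% of 230 member values from 1 to 40, so it seems that each small RNA was counted 2 times. A member with 0 counts is therefore known only to lie under a floor of 6 counts, which was 12.8 to 18.3 CPM in the KO, 3.93 to 6.04 CPM in induced E518K and 1.11 to 2.94 CPM in induced wild type. Embryonic stem cell miRNAs of the miR-290 and miR-302 families, a list of 24, made up 34.4% to 39.6% of induced wild-type counts, 15.8% to 18.1% of induced E518K counts and 0.133% to 0.378% of KO counts, with 8 of 24 at 0 in the KO. These libraries do not measure DGCR8 itself. DGCR8-independent miRNAs moved the other way, with 0.104% to 0.180% of counts in induced wild type, 0.902% to 1.63% in induced E518K and 12.3% to 17.2% in the KO. Mesenchymal markers, a list of 10, held 1.47% to 2.02% in the KO and 0.227% to 0.336% in induced wild type, and their part in the results was not tested.

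The cluster as a whole was a minor but clearly measured share of the miRNA counts in wild-type cells. It held 2.47%, 1.64% and 3.26% of all counts in induced wild-type clones 10, 12 and 16, a mean of 2.46% ± 0.812 (SD, n = 3). In induced E518K clones 8, 13 and 15 it held 2.44%, 1.68% and 1.67%, a mean of 1.93% ± 0.440 (SD, n = 3). The ranges of both groups overlapped, so the summed cluster did not separate E518K from wild type. By contrast, the 3 KO libraries gave 0.0254%, 0.0426% and 0.0325%, and none came near the other induced libraries. In bulk RNA, fewer cells that express the cluster and less of it per cell cannot be told apart. Without doxycycline the cluster held 0.869% in wild-type clone 10 (95% exact Clopper-Pearson interval 0.848% to 0.891%) and 0.486% in E518K clone 8 (0.449% to 0.525%), intervals that cover counting error only. From 68 to 70 members had a count in the induced wild-type libraries, 53 to 59 in induced E518K and 8 to 14 in the KO.

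Within this sum, the members of the cluster changed by different amounts in E518K. The comparison of induced E518K with induced wild type asks which miRNAs are made at other levels when DGCR8 carries the change. Of the 55 members tested, 29 were lower (background: 35.3% of all 730 miRNAs tested were lower) and 9 were higher (background 28.2%), by edgeR's quasi-likelihood test at an adjusted p of 0.05, and 17 did not pass. When miRNAs that do not need DGCR8 set the scale in place of TMM, 52 members were lower and 0 higher, so the higher calls are relative to the bulk of miRNAs and not to that list. Changes ran from −7.47 to 3.30 on the log2 scale, with a median of −1.53 over the members tested and −0.14 over all miRNAs tested. All miRNAs tested ran from −8.87 to 6.58. The SD of the changes was 2.77 over the members and 3.04 over all, so the width of the spread was not particular to the cluster. The libraries of both groups did not overlap for 29 members in the lower direction (background 38.8%) and 13 in the higher (background 25.8%). Leaving out wild-type clone 16 moved the median of the members to −0.57 and the count of higher members to 17. It moved the median of all miRNAs as well, from −0.14 to 0.73, so the members stayed below it. Leaving out clone 12 moved the count of higher members to 5.

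miR-134-5p, the arm best known for restraining dendritic spine growth through Limk1 in neurons, showed the largest fall. It was at 2121, 1208 and 1663 CPM in induced wild-type clones 10, 12 and 16. In E518K clones 8, 13 and 15 it was at 11.8, 4.99 and 11.1 CPM, far under every wild-type library. The log2 change was −7.47 (SE 0.53, adjusted p = 5.1e-38), a 177-fold fall.

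miR-379-5p, from the first hairpin and the most abundant member in wild type, was at 9412, 6051 and 6337 CPM there, a mean of 7267 ± 1860 (SD, n = 3). The E518K libraries had 173, 84.0 and 220 CPM, a mean of 159 ± 68.8 (SD, n = 3). Its fall of 5.52 (log2, SE 0.45, adjusted p = 2.6e-29) was 45.8-fold, and the groups were far from touching. The other strand of the same hairpin, miR-379-3p, was at 333, 363 and 484.2 CPM in wild type and at 9.16, 1.66 and 16.1 CPM in E518K, which gave a nearly equal log2 change of −5.47 (SE 0.53, adjusted p = 1.4e-21).

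The next hairpins downstream fell as well. miR-411-5p, which resembles miR-379-5p at 14 of 21 positions with a different seed, was at 1474, 1318 and 2086 CPM in wild type and at 131, 103 and 116 CPM in E518K. This was a change of −3.80 (log2, SE 0.43, adjusted p = 8.9e-17). miR-323-3p was at 1836, 1235 and 1747 CPM in wild type and at 232, 106 and 178 CPM in E518K, a change of −3.22 (SE 0.41, adjusted p = 3.1e-13). For both, the highest E518K library was below the lowest wild-type library by a wide margin.

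3 less abundant members also fell steeply. miR-758-3p was at 484.1, 360 and 475 CPM in wild type and at 14.4, 3.33 and 12.1 CPM in E518K, a change of −5.44 (SE 0.52, adjusted p = 2e-22). For miR-1193-3p, wild type had 132, 99.2 and 151 CPM and E518K 1.31, 4.99 and 2.01 CPM, a change of −5.51 (SE 0.64, adjusted p = 5.6e-16). miR-376c-3p went from 75.05, 69.5 and 91.0 CPM to 3.93, 3.33 and 2.01 CPM, a change of −4.59 (SE 0.63, adjusted p = 6e-12). E518K values of the last pair lie at or under the floor, so the size of these falls is uncertain. In E518K clone 13 alone, miR-758-3p and miR-379-3p were also under the floor, with 4 and 2 counts. There miR-134-5p was at the floor, with 6 counts, so the exact size of these falls is uncertain too. miR-299a-3p had a fitted change of −7.03, with 1 E518K library at 0, and the same holds for its opposite-strand copy miR-299b-5p.

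Moderate falls were seen for abundant members in the second part of the cluster. Both strands of Mir382 fell alike. miR-382-3p was at 924, 585 and 641 CPM in wild type and at 111, 61.5 and 68.5 CPM in E518K, a change of −3.15 (SE 0.43, adjusted p = 7.5e-12), and miR-382-5p changed by −3.32 (SE 0.44, adjusted p = 9.8e-13). miR-381-3p, a neuronal activity-regulated miRNA that promotes dendrite growth, was at 4003, 2550 and 3124 CPM in wild type and at 936, 482 and 1005 CPM in E518K. Its change of −2.0 (SE 0.39, adjusted p = 1.3e-06) was smaller, yet every E518K library was below every wild-type library.

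Apart from the arms of Mir299a and their copies (−5.80 for miR-299a-5p, with 2 counts in E518K in all), other members of the lower group had changes between −4.01 (miR-380-3p) and −1.32 (miR-377-3p, adjusted p = 0.029). They include miR-494-3p at −2.62 and the strands of Mir329 at −1.53 and −1.61. Of the 29 lower members, 23 were called lower under every alternative. miR-410-3p, from the last hairpin, was at 439, 374 and 706 CPM in wild type and at 116, 187 and 73.5 CPM in E518K. That change of −2.01 (SE 0.42, adjusted p = 6.3e-06) became −1.05 (adjusted p = 0.066) without wild-type clone 16. The calls of miR-329-3p, miR-329-5p, miR-377-3p, miR-539-5p and miR-666-5p were also lost without that clone.

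**Figure D1:**
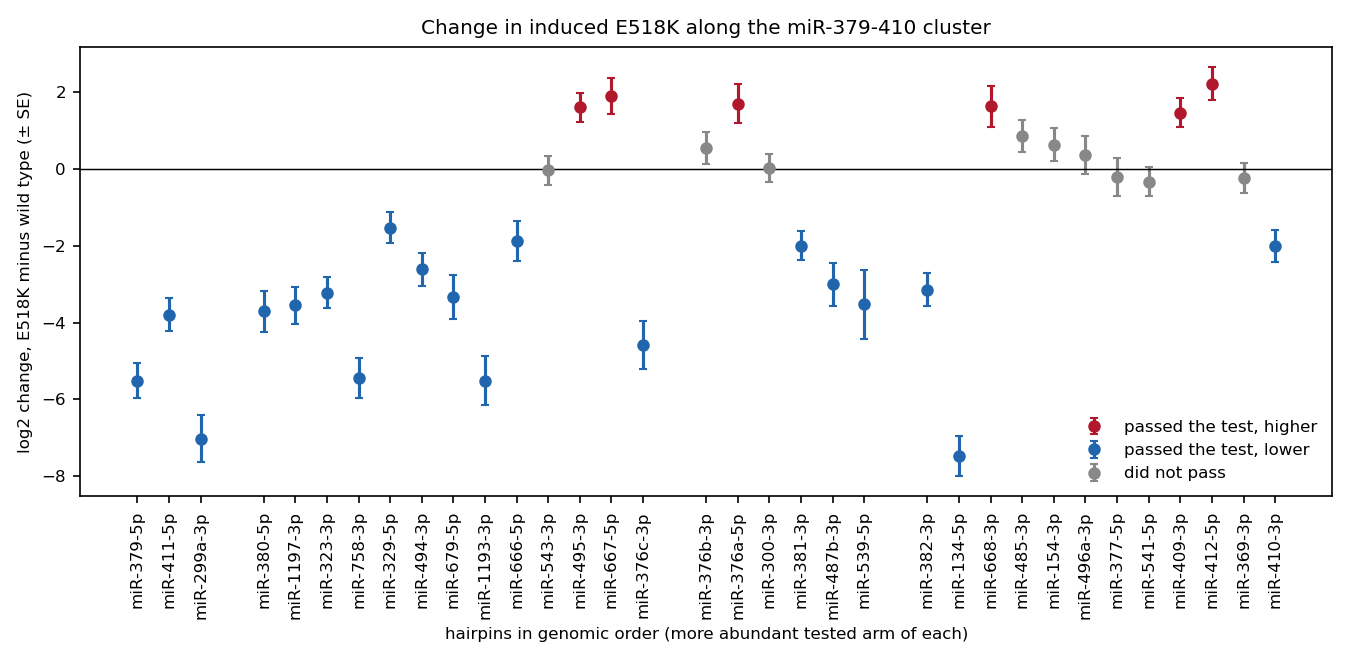
Log2 change of the more abundant tested arm of each hairpin (points, with SE) in induced E518K against induced wild type, from edgeR on TMM-scaled counts, with hairpins in genomic order along the horizontal axis. The 12 hairpins before Mir543 were all lower, from −7.03 to −1.53, whereas from Mir543 on 6 were higher, 7 lower and 9 did not pass. Scaled to DGCR8-independent miRNAs, none of the 6 was higher. Without wild-type clone 16 the lower calls of Mir329, Mir666, Mir539 and Mir410 were lost.

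The higher members came from 6 hairpins, Mir495, Mir667, Mir376a, Mir668, Mir409 and Mir412, and each of the statements on them holds for TMM scaling. Scaled to DGCR8-independent miRNAs, every one of the 9 lost its call and 8 of them changed sign. miR-409-3p became the most abundant member of the cluster in E518K. It was at 3093, 2022 and 2389 CPM in wild type and at 9659, 3766 and 7269 CPM in E518K, so that all E518K libraries were above all wild-type libraries. Its change was 1.46 (log2, SE 0.38, adjusted p = 0.00033), or 2.76-fold. The other strand, miR-409-5p, was at 603, 490 and 523 CPM in wild type and at 1650, 710 and 1310 CPM in E518K. It rose by 1.18 (SE 0.38, adjusted p = 0.0044), a call that did not hold when wild-type clone 12 was left out (adjusted p = 0.094), nor when E518K clone 8 was (0.077).

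Mir412, the neighbour of Mir409, had the largest rises. miR-412-3p was at 12.8, 7.89 and 7.41 CPM in wild type and at 89.6, 95.6 and 87.6 CPM in E518K, a rise of 3.30 (SE 0.53, adjusted p = 4.4e-09) or 9.85-fold. miR-412-5p was at 114, 64.3 and 97.8 CPM in wild type and at 567, 283 and 430 CPM in E518K, a rise of 2.21 (SE 0.42, adjusted p = 8.4e-07). Both strands separated the groups completely, and miR-412-3p alone among the 9 kept a positive change with the DGCR8-independent scaling (0.54, adjusted p = 0.32).

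miR-495-3p rose by 1.60 (SE 0.38, adjusted p = 0.00011), from 629, 697 and 561 CPM in wild type to 1765, 1674 and 2272 CPM in E518K. The strands of the next hairpin, Mir667, were scarcer. miR-667-5p went from 49.1, 30.3 and 43.2 CPM to 171, 89.0 and 194 CPM, a rise of 1.89 (SE 0.47, adjusted p = 0.00017). miR-667-3p went from 20.1, 11.5 and 17.2 CPM to 47.1, 47.4 and 47.3 CPM, a rise of 1.54 (SE 0.50, adjusted p = 0.0043). In each of these 3 the E518K libraries stood above all wild-type libraries. For miR-667-3p the adjusted p was 0.054 when wild-type clone 10 was left out and 0.14 when clone 12 was.

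Mir376a, whose primary transcript is a known substrate of adenosine-to-inosine editing in brain, gave a split picture with its relatives. miR-376a-5p was at 14.2, 11.5 and 17.2 CPM in wild type and at 53.0, 46.6 and 40.3 CPM in E518K, a rise of 1.69 (SE 0.50, adjusted p = 0.0018). Leaving out wild-type clone 10 or 12 gave an adjusted p of 0.060 or 0.099. Within the same family miR-376b-3p showed 0.53 (adjusted p = 0.25), and miR-376c-3p fell by 4.59, as given above. Reads of miR-376a-3p and miR-376b-3p, which have the same base at 18 of 21 positions, may be hard to tell apart.

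The last of the 9 higher members, miR-668-3p, was scarce. It was at 4.91, 5.77 and 11.9 CPM in wild type and at 30.8, 13.3 and 28.2 CPM in E518K, a rise of 1.62 (SE 0.53, adjusted p = 0.0043). Leaving out wild-type clone 10, wild-type clone 12 or E518K clone 8 removed the call (adjusted p = 0.12, 0.13 and 0.069).

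Several abundant members did not differ beyond the spread. miR-541-5p, the second most abundant in wild type, was at 5562, 5180 and 4709 CPM there and at 5331, 2230 and 4706 CPM in E518K, a change of −0.33 (SE 0.37, adjusted p = 0.43). miR-300-3p was at 3786, 2096 and 2515 CPM in wild type and at 3787, 1576 and 3115 CPM in E518K, a change of 0.01 (SE 0.37, adjusted p = 0.98). miR-543-3p was at 1083, 978 and 1660 CPM in wild type and at 1505, 1221 and 898 CPM in E518K, a change of −0.04 (SE 0.38, adjusted p = 0.93). For all 3 the libraries of the groups overlapped, and the sign of the change depended on the setting. The contrast between miR-300-3p and its near neighbour miR-381-3p, which fell, is between sequences with 19 equal bases of 22. Among the other members that did not pass, miR-485-3p, miR-154-3p and miR-496a-3p showed 0.85 (adjusted p = 0.059), 0.63 and 0.36, and miR-369-3p and miR-377-5p −0.24 and −0.22.

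**Figure D2:**
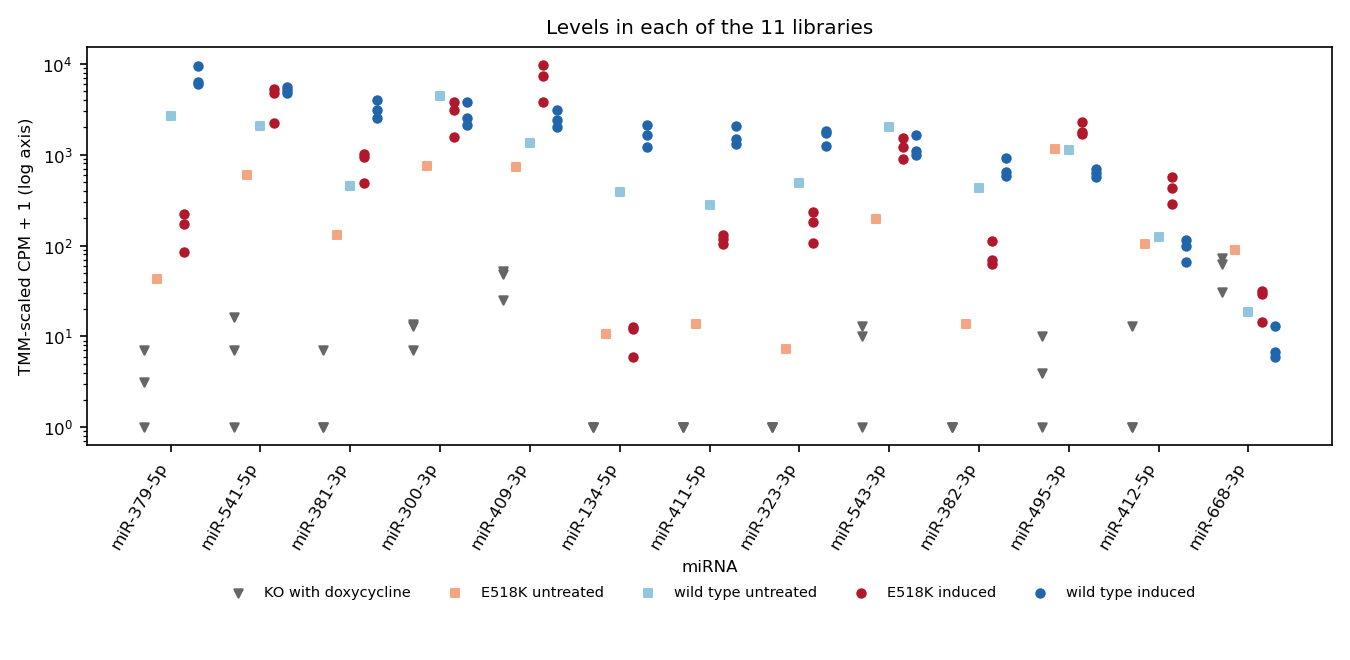
TMM-scaled CPM plus 1 (log axis) of the 10 most abundant members in induced wild type together with miR-495-3p, miR-412-5p and miR-668-3p, with 1 point for each of the 11 libraries. miR-379-5p and miR-134-5p separate induced E518K from wild type by more than an order of magnitude, miR-541-5p and miR-300-3p overlap, and miR-668-3p alone has KO libraries above induced wild type.

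Position in the cluster went along with the direction of change. With Mir299b left out, 34 hairpins had a tested arm, and the more abundant tested arm was lower in 19, higher in 6 and not past the test in 9. All 12 hairpins before Mir543 were lower (background: 35.3% of all 730 miRNAs tested were lower), with a median of −3.63. From Mir543 to Mir410 there were 22, of which 7 were lower, 6 higher and 9 did not pass, with a median of −0.01. The place of this split was chosen after the values were seen, so no test is given. Across the 34 hairpins, order and change had a Spearman rho of 0.55 and a Pearson r of 0.54, as a description: neighbouring hairpins share a primary transcript and the same 6 libraries. The lower hairpins in the second part were Mir376c, Mir381, Mir487b, Mir539, Mir382, Mir134 and Mir410, scattered between higher ones and ones that did not pass. Without wild-type clone 16, the lower calls were lost for Mir329 and Mir666 in the first part and for Mir539 and Mir410 in the second. Mir134 and Mir668, which follow each other, changed by −7.47 and 1.62.

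The strands of 1 hairpin mostly shared their call. Both arms were tested in 19 hairpins, and in 16 they had the same call: 7 lower, 3 higher and 6 not passed. None had opposite calls. The changes of both arms had a Pearson r of 0.93 across these hairpins, a description over arms that share their precursor and libraries. Neither value was computed for hairpins outside the cluster, so this agreement is not known to be particular to it.

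The makeup of the cluster, which does not depend on the scaling between libraries, changed with it. Counts of the miR-379 hairpin were 23.9%, 21.3% and 19.2% of cluster counts in the wild-type libraries, a mean of 21.5% ± 2.35 (SD, n = 3), and 0.635%, 0.584% and 0.988% in E518K. Mir134 went from 4.65% ± 0.597 to 0.0405% ± 0.00621 (SD, n = 3). Mir409 had the largest share in E518K, from 9.08%, 8.35% and 8.21% in wild type to 39.5%, 30.5% and 36.0% in E518K. Mir495 went from 1.82% ± 0.436 to 9.04% ± 2.66, and Mir412 from 0.283% ± 0.0375 to 2.35% ± 0.211. None of these 5 hairpins had overlapping groups, but the same holds for most hairpins of the cluster. Shares add up to a fixed sum, so a fall in one raises the others. Mir541 made up 14.7% ± 2.18 in wild type and 17.9% ± 2.35 in E518K, with overlapping libraries.

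The choice of strand was tested apart from the level, as the ratio of 5p to 3p counts within a hairpin (log2, 1 count added to each arm). Of 18 cluster hairpins with enough counts, 2 passed in E518K against wild type by limma's moderated test (background: 8.21% of all hairpins tested). The libraries did not overlap for 10 of the 18 (background 33.6%). Mir299a and Mir299b, the same counts with the arms swapped, are both among the 18 and both among the 10. In Mir410 the ratio was −4.91 in wild type and −2.16 in E518K, a shift towards the 5p strand of 2.75 (SE 0.49, adjusted p = 0.007). The shift went with a lower miR-410-3p beside a miR-410-5p that did not pass (0.73, adjusted p = 0.19). Without wild-type clone 12 the adjusted p was 0.053. In Mir1193 the ratio went from −2.29 to −0.16, a shift of 2.13 (SE 0.50, adjusted p = 0.026), but its E518K counts were so low that a pseudocount of 0.5 removed the call (adjusted p = 0.059), as did leaving out any 1 wild-type clone. In Mir376a, Mir412 and Mir485 the libraries of both groups did not overlap, with shifts of 1.11, −1.10 and −1.12 that did not pass (adjusted p = 0.12, 0.11 and 0.082).

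**Figure D3:**
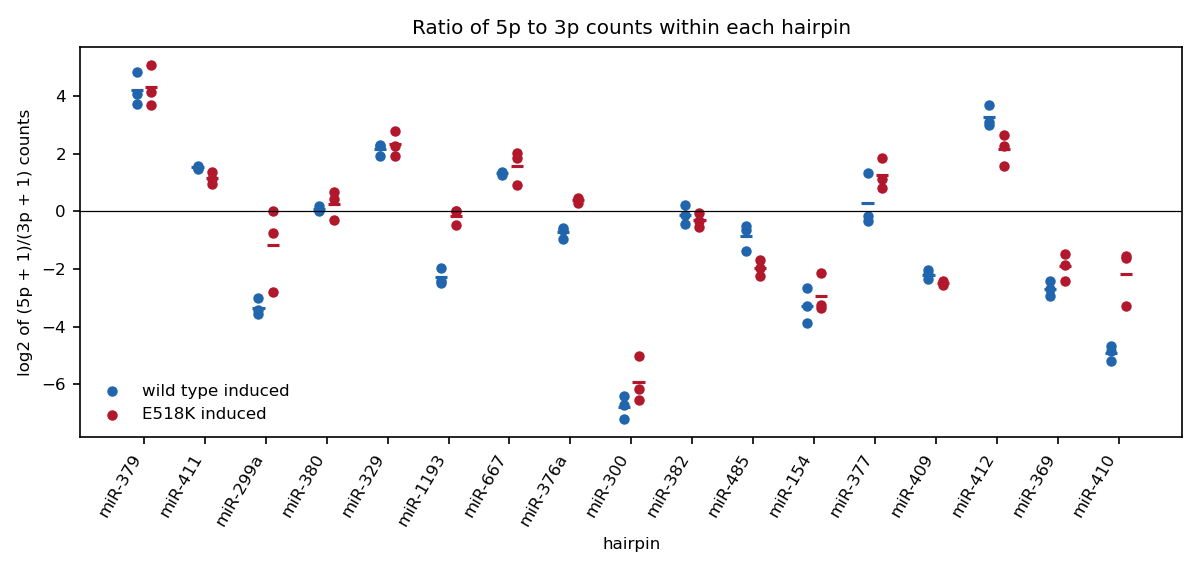
Log2 ratio of 5p to 3p counts (1 added to each) for the cluster hairpins tested, Mir299b left out, in each induced wild-type and E518K library (points) with group means (dashes). Mir410 and Mir1193 passed the test, by 2.75 and 2.13 towards the 5p strand, and the ratios of Mir379 and Mir382 overlapped.

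Almost nothing of the cluster was left in the KO. The KO libraries together held 179 counts of cluster members, where 13381 would have been found at the share of induced wild type. Of the 74 members, 56 had 0 counts in every KO library, 37 of them among the 55 tested. Against wild type, 54 of the tested members were lower (background 58.4%) and 1 was higher (background 30%), by edgeR's quasi-likelihood test. Some of the 54, such as miR-543-5p, miR-376b-5p and miR-412-3p, had wild-type means under the KO floor (4.75, 5.93 and 9.35 CPM). The KO depth cannot show these to be lower. The libraries did not overlap for 54 in the lower direction (background 60%) and 1 in the higher (background 24.9%). Here too, the 37 tested members at 0 throughout the KO could not be higher. The median change was −8.48 as fitted and −3.32 with groups at 0 set to the floor, because the KO libraries were shallow. All miRNAs tested had medians of −3.54 and −0.31 on these measures.

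For members at 0 throughout the KO only a bound can be given. miR-134-5p was at least 102-fold lower than in wild type, miR-411-5p at least 99.4-fold, miR-323-3p at least 98.1-fold and miR-382-3p at least 43.8-fold. miR-379-5p had 3 counts in the KO, against 2664 at the wild-type share. The members with the highest KO levels after miR-668-3p were miR-409-3p, miR-300-3p, miR-543-3p, miR-541-5p and miR-382-5p. miR-409-3p was at 51.2, 48.0 and 24.4 CPM in the 3 KO libraries, a change of −5.90 from wild type (SE 0.48, adjusted p = 1e-30). miR-300-3p was at 12.8, 12.0 and 6.10 CPM, within a few counts of 0. Its change from wild type was −8.04 (SE 0.56, adjusted p = 9.8e-41), and those of miR-541-5p, miR-543-3p and miR-382-5p were −9.64, −7.59 and −6.91.

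miR-668-3p was the exception. It had 14, 24 and 20 counts in the KO libraries, 58 in all, where 3.06 would have been found at the wild-type share. On the TMM scale this was 29.8, 72.0 and 61.0 CPM, above every induced wild-type library, a rise of 2.77 (SE 0.55, adjusted p = 1.3e-06) that turned to −2.48 with the DGCR8-independent scaling and did not pass with the authors' pRPM (0.79, adjusted p = 0.23). Untreated E518K clone 8, also a library with few miRNA counts, had 88.9 CPM and untreated wild-type clone 10 had 17.5 CPM. The other strand, miR-668-5p, did not pass the filter on low counts. Without miR-668-3p the KO libraries had 39, 47 and 35 cluster counts.

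**Figure D4:**
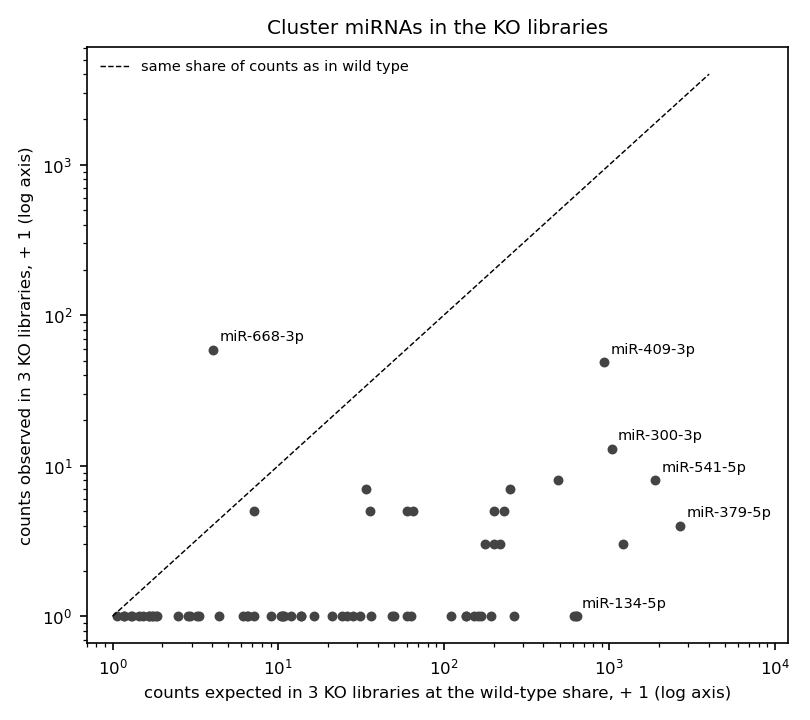
Counts of each cluster member summed over the 3 KO libraries against the counts expected at the share of induced wild type, 1 added to both, on log axes, with a dashed line of equality. miR-668-3p (58 against 3.06) lies above the line, while miR-409-3p (48 against 929) and miR-379-5p (3 against 2664) lie far below it.

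Most of the cluster was called higher in E518K cells than in the KO, though not every call lay above the KO floor. This comparison asks what E518K DGCR8 still supplies. Of the 55 members, 47 were higher in induced E518K than in the KO (background 41.9%), 1 was lower (background 26.2%) and 7 did not pass. The libraries did not overlap for 49 in the higher direction (background 42.7%) and for 0 in the lower (background 24.8%). This measure says little for the 37 tested members at 0 throughout the KO. They could not be lower, and any count in each E518K library made them higher. Both arms of Mir1193 are among the 49 in this way, with E518K levels under the KO floor. The median change was 7.24 as fitted and 1.51 with groups at 0 set to the floor. Some of the 47, such as miR-379-3p, miR-134-5p and miR-758-3p at means of 8.98, 9.28 and 9.93 CPM in E518K, were under the KO floor. The KO had 0 counts of these, so its depth cannot show them to be higher in E518K. The 7 that did not pass were both arms of Mir299a, of Mir299b and of Mir1193, and miR-539-5p. All of them had also fallen against wild type. Of the members that did not pass against wild type, the 3 most abundant were far above the KO: miR-541-5p by 9.31 (SE 0.60, adjusted p = 4.6e-45), miR-300-3p by 8.06 and miR-543-3p by 7.55. miR-668-3p was the 1 member lower than in the KO, by −1.15 (SE 0.54, adjusted p = 0.0495). That call was lost without KO library 1 (adjusted p = 0.22) or without E518K clone 15 (adjusted p = 0.49), and the sign turned with the DGCR8-independent scaling (1.35) and with the authors' pRPM (0.60).

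Without doxycycline each genotype had 1 library, so the ratios of untreated to induced levels are given with counting intervals and no test. In wild-type clone 10, miR-379-5p was at 2694 CPM untreated and 9412 CPM induced, a ratio of 0.286 (95% interval 0.267 to 0.306). miR-134-5p had a ratio of 0.183 (0.152 to 0.218) and miR-381-3p 0.112 (0.0945 to 0.131). miR-541-5p had 0.375 (0.347 to 0.406) and miR-409-3p 0.429 (0.388 to 0.474). Against this general drop, miR-543-3p at 1.88 (1.71 to 2.07) and miR-495-3p at 1.79 (1.58 to 2.04) were higher in the untreated library. So were 2 scarce members, miR-410-5p at 3.67 (1.84 to 7.41) and miR-543-5p at 9.21 (3.20 to 32.3). miR-300-3p at 1.17 (1.11 to 1.25) fell below 1 (0.943) when scaled by total counts. Untreated E518K clone 8 was shallow, and 31 members had a count. There miR-495-3p had 1166 CPM against 1765 CPM induced, a ratio of 0.66 (0.563 to 0.771), the highest of the members with at least 100 induced counts. miR-409-3p had 0.075 (0.0618 to 0.0902) and miR-409-5p 0.0077 (0.000932 to 0.0279), with 4 counts left of 2522. miR-369-3p was at 0 untreated against 612 counts induced.

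The drop without doxycycline can be set beside the change in E518K. To avoid shared libraries, the difference of untreated and induced clone 10 was set beside that of induced E518K and wild-type clones 12 and 16. Over the 37 members with a mean of at least 100 counts, these differences had a Pearson r of 0.66 and a Spearman rho of 0.67, given as a description over miRNAs of the same libraries. Over the 262 other miRNAs with such counts r was 0.74 and rho 0.73, so the relation was not a feature of the cluster alone.

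**Figure D5:**
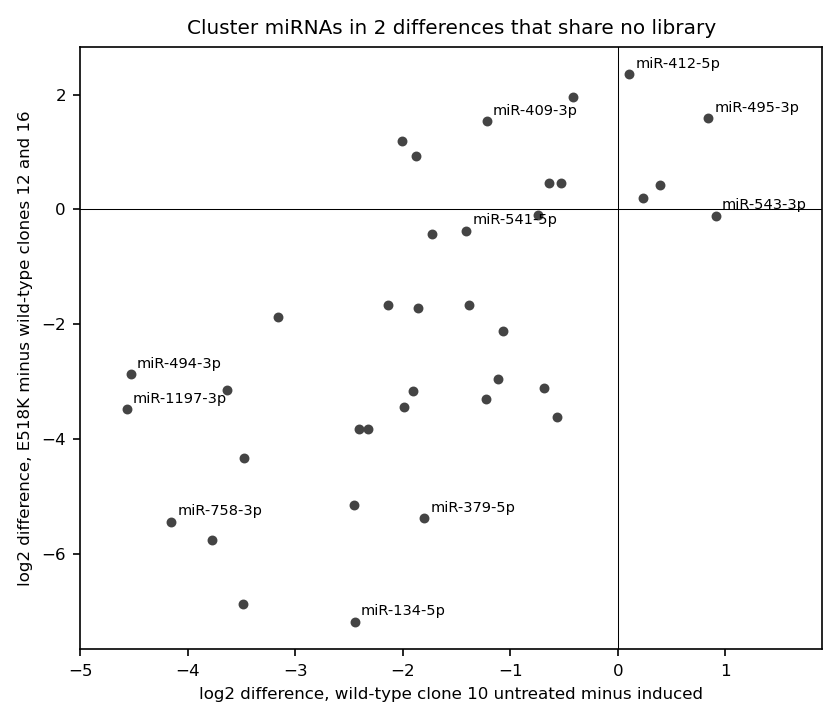
Each point is 1 of 37 cluster members, with the log2 difference of wild-type clone 10 untreated minus induced on the horizontal axis and induced E518K minus wild-type clones 12 and 16 on the vertical axis. miR-134-5p, miR-379-5p and miR-758-3p are low on both, while miR-495-3p and miR-412-5p are above 0 on both with TMM scaling.

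Hairpin features that the choice of members had not used showed no plain division between lower and higher hairpins. A UGU or GUG within bases 20 to 26 from the start of the 5p arm, the letters known from the apical site of some precursors, was searched on the RNA strand only, in either form where they overlap. It was found in 7 of 33 cluster hairpins (21.2%) and in 203 of 689 hairpins overall (29.5%). The median change was −1.66 in the 6 tested cluster hairpins with it and −2.0 in the 26 without. Mir134 and Mir412, at opposite ends of the range, both had it. GC content of the cluster hairpins had a median of 43.0%, against 51.7% over 1005 hairpins. It was 42.4% in the 18 lower hairpins and 52.8% in the 6 higher ones, with ranges of 29.1% to 60.6% and 32.4% to 62.0% that overlapped. Over the 32 tested hairpins with a sequence and an annotated 5p arm, which leaves out Mir485, the Spearman rho of GC content and change was 0.01. The distance between the arms had a median of 14 bases in the lower and 15.5 bases in the higher hairpins.

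The other miRNAs of the Dlk1-Dio3 domain give a frame for these values. Of 16 miRNAs from the Rtl1-antisense region, which holds miR-127, miR-136, miR-431, miR-433 and miR-434, 14 were tested. In E518K against wild type 3 were lower (background 35.3%), 4 higher (background 28.2%) and 7 did not pass, with a median change of −0.35. The list also holds miR-3071. Its 5p to 3p ratio shifted by −4.87 and that of miR-136 by 4.94, near mirror images, so these entries may count the same reads. Of 21 miRNAs on the Meg3 and Rian side, 15 were tested and all 15 were lower (background 35.3%), with a median of −4.03. The cluster, at 29 lower and 9 higher of 55 with a median of −1.53, lay between them, and the difference between the lists was not tested. In the KO against wild type, 12 of 14 of the first list were lower (background 58.4%) and 2 higher (background 30%), and 15 of 15 of the second were lower. In this comparison 6 of the first list and 13 of the second were at 0 throughout 1 group. Their medians were −5.31 and −9.74 as fitted, and −3.74 and −2.84 with groups at 0 set to the floor.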

How the data were processed

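Per the labels' protocols, total RNA was made into small RNA libraries with a NEBNext kit. The authors deposited read counts per mature miRNA, not normalized, and the same table as pRPM, an RPM-like unit whose reference the sources used here do not state. Dividing the deposited pRPM by the worth of 1 read gave whole numbers (within 0.01) for 100% of values, all equal to the counts, and edgeR on these recovered reads called the same 29 lower and 9 higher members. STAR, bedtools and the build GRCm38.p6 are named in the submitters' processing notes. How reads were trimmed and counted: not given in the sources used here.

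Counts were tested with edgeR 4.0.16 in R 4.3.3 (robust quasi-likelihood fit, all 11 libraries in 5 groups, TMM, filterByExpr with minimum count 10 and total 15, Benjamini-Hochberg over 730 miRNAs, threshold 0.05), which gave all adjusted p-values of single miRNAs. Untreated groups of 1 library were not tested. Arm ratios were tested with limma 3.58.1 (trend, robust) over all hairpins with a mean of at least 20 counts in each arm. The scripts were tested on simulated data. Intervals were exact and taken on counts divided by 2. They and the floor of 6 counts (3 small RNAs) cover counting error only. Alternatives included DESeq2 1.42.0, other scalings and filters, and leaving out each library. Basal hairpin motifs beyond the RefSeq hairpins were not analysed here.

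Members printed in full were the 10 most abundant in induced wild type, all that were higher in E518K, the 6 largest falls with counts in every E518K library, the 6 most abundant in the KO and hairpins past the arm test. Others named (such as miR-377-3p) were chosen after their values were seen. The members and lists were chosen with earlier results of these data known. Neural markers held at most 0.118% and blood markers at most 0.0260% of the counts of a library.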

Additional observations from a re-analysis of the deposited data

Results flagged for a closer look

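For 3 members the ratio of untreated to induced levels lay above 1 in wild type and below 1 in E518K with counting intervals that left out 1 in both. Other members, such as miR-376b-3p and miR-410-5p, lay on opposite sides of 1 with an interval that held 1 in at least 1 genotype. Each value rests on 1 untreated and 1 induced library, and the difference between the genotypes was not tested. The same rule was not applied to miRNAs outside the cluster, so the pattern is not known to be particular to these members. The summed share of the listed embryonic stem cell miRNAs also differed in this way between the genotypes. It was slightly below every induced library in untreated wild type, and far below every induced library in untreated E518K. The ratio of the untreated to the induced level of miR-543-3p was 1.88 in wild-type clone 10 and 0.129 in E518K clone 8. For miR-495-3p the ratios were 1.79 and 0.66, and for miR-300-3p 1.17 and 0.196. Scaled by total counts, the wild-type ratio of miR-300-3p was 0.943, on the same side of 1 as in E518K.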

How the results depend on the processing

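No paired analysis was possible because the groups compared share fewer than 2 clone numbers. In E518K against wild type, the count of higher members ranged from 5 to 17 when 1 library was left out (5 without wild-type clone 12, 17 without clone 16) and the count of lower members from 23 to 29. Without clone 16 the members shifted up by 0.55 to 1.24, and all miRNAs had a median shift of 0.69. Scaled to DGCR8-independent miRNAs, which moved the median of all miRNAs by −2.76, 52 members were lower and 0 higher. Under that scaling the changes were miR-300-3p −2.74, miR-376a-5p −1.08, miR-409-3p −1.29, miR-409-5p −1.58, miR-410-5p −2.04, miR-412-5p −0.55, miR-495-3p −1.17, miR-667-3p −1.22, miR-667-5p −0.86 and miR-668-3p −1.13. Total counts moved that median by 0.34, DESeq2 by −0.17 and pRPM by −0.10. Members near 0 changed sign. miR-300-3p was −0.12 with pRPM, −0.25 with DESeq2, −0.013 with no filter and −0.017 with halved counts, and ranged from −0.20 (without wild-type clone 12) to 0.69 (without clone 16) when 1 library was left out, with −0.05 and −0.07 without E518K clones 8 and 15. miR-543-3p was 0.30 with total counts and 0.022 with 2 groups only, and ranged from −0.40 (without wild-type clone 12) to 0.90 (without clone 16), with 0.18 without E518K clone 15. miR-541-5p ranged from −0.44 (without E518K clone 15) to 0.36 (without wild-type clone 16).

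In the KO against wild type, 0 members were higher with the DGCR8-independent or pRPM scaling, and miR-668-3p changed by −2.48 with the former. In E518K against the KO, 0 were lower with DGCR8-independent scaling, pRPM or halved counts, and 0 to 1 when 1 library was left out. There miR-668-3p was 1.35 with the DGCR8-independent scaling and 0.60 with pRPM. Arm ratios passed in 1 hairpin with a pseudocount of 0.5, 6 with 5, 0 with a filter of 50 counts, and 0 to 4 when 1 library was left out. The causes of these changes were not tested. The KO libraries' depth limits every KO value: a member absent there could reach 12.8 to 18.3 CPM.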
